A study of Homo sapiens with 16 samples.

Results

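The genes described here are those for the proteins of the cytosolic ribosome, in 3 lists of ChIP-Seq peaks from HEK293T, a human embryonic kidney cell line. A gene was taken as a member if it is annotated as protein-coding and is named RPL or RPS with a number and an optional ending A, X or L, or is RPLP0, RPLP1, RPLP2 or RPSA, and the kinases whose names begin with RPS6K were left out. The rule found 81 members of 20176 protein-coding genes, 49 for the large and 32 for the small subunit. The rule used names and no measured value.

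The series holds 16 samples, and the lists belong to untreated wild-type, POLK-/- and DDX23-/- cells, 1 list each. POLK encodes Pol κ, a translesion DNA polymerase, and DDX23 an RNA helicase of the spliceosome. The 3 pulldowns carry the antibody label Polk, while the protocol given for them names anti-FLAG beads and the labels give these cells no tag. The POLK-/- cells therefore lack, by their label, the protein that the antibody label names. Whether each knockout is a single clone is not given in the sources used here, and a list of peaks does not show whether POLK or DDX23 was expressed. The labels of the lists and the names of their peaks give different library numbers for wild-type and DDX23-/- cells, and the library behind each list is therefore uncertain. The labels give each genotype 2 pulldown and 2 control libraries, and the data used here are 1 peak list per genotype, so the spread between libraries is not known and no difference between genotypes was tested. The lists differ in depth. The background, read as pulldown fragments, was 0.573 in the wild-type, 1.25 in the POLK-/- and 1.94 in the DDX23-/- list at its lowest common level. The lists hold 1468, 2451 and 5945 peaks in that order, and their weakest peaks rest on 6, 10 and 14 fragments. More peaks are therefore callable in the DDX23-/- list than in the wild-type list at the same degree of enrichment.

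Ribosomal proteins are made in matched and very large amounts in growing cells, and their genes are spread over nearly all chromosomes. Their mRNAs begin with a run of pyrimidines, the terminal oligopyrimidine tract, through which mTOR signalling sets their translation. Their promoters lie in CpG-rich DNA and are among the most active in dividing cells, many of the genes hold snoRNAs in their introns, and loss of a copy of several of them causes Diamond-Blackfan anaemia, a failure of red cell production.

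The pyrimidine tract is shown here because it marks where transcription of these genes begins, and with it the point from which a peak is measured. Sequences are from GRCh37, 5' to 3' on the gene's strand, around the start of the canonical transcript in GENCODE. Long ones hold 100 bases before the start and 20 bases from it on, short ones 15 and 15. The capitals mark the longest run of at least 4 pyrimidines at the start. These 5 members had a peak in every list:
RPL3 (chr22:39715609-39715728, minus strand): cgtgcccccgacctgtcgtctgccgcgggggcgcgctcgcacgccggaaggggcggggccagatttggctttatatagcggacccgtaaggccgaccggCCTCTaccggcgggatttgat
RPL23 (chr17:37009955-37010074, minus strand): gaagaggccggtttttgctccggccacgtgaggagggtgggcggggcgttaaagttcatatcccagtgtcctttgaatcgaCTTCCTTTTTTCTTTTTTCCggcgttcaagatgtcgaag
RPS6 (chr9:19380215-19380334, minus strand): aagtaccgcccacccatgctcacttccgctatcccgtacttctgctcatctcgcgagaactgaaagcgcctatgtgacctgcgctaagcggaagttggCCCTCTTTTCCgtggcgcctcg
RPLP0 (chr12:120638900-120638929, minus strand): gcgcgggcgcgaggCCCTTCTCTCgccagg
RPL26 (chr17:8286497-8286526, minus strand): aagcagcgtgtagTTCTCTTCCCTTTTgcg
The next 4 had a peak in no list. RPLP2 pairs with RPLP1 in the stalk of the large subunit, RPS12 is a protein of the small subunit, RPL11 binds 5S RNA, and RPL10L is a retrocopy of RPL10 expressed in testis, which has no such run at its start:
RPLP2 (chr11:809867-809986, plus strand): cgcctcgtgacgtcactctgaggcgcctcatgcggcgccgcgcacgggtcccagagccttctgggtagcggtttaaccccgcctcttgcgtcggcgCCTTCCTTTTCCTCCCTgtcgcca
RPS12 (chr6:133135608-133135727, plus strand): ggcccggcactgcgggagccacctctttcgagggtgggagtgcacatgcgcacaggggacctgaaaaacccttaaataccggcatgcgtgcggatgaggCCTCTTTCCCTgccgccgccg
RPL11 (chr1:24018281-24018310, plus strand): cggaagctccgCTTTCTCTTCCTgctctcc
RPL10L (chr14:47120965-47121084, minus strand): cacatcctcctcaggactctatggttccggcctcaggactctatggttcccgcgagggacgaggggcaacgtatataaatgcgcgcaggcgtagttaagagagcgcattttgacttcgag
Tracts of similar length therefore stood at starts with a peak and at starts without one. RPL23 had a run of 20 pyrimidines and a peak in every list, and RPLP2 a run of 17 and a peak in none.

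A peak was assigned to a member if it came within 1 kb of the annotated start of the gene. In the wild-type list 7 of the 81 members had a peak, or 8.64% (95% exact binomial interval 3.55 to 17.0%), against 5.61% of all protein-coding genes. In the POLK-/- list 20 had one, or 24.7% (15.8 to 35.5%), against 10.1%. In the DDX23-/- list 42 had one, or 51.9% (40.5 to 63.1%), against 24.9%. The share of members thus stood above that of all genes in every list, and in the wild-type list the interval of the members included the share of all genes. The intervals cover counting only and treat genes as independent draws. Genes for mitochondrial ribosomal proteins, which work in another compartment, gave nearly the same shares: 10 of 78 (12.8%), 19 of 78 (24.4%) and 40 of 78 (51.3%). The higher share was thus seen in both kinds of ribosomal protein genes.

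**Figure D1:**
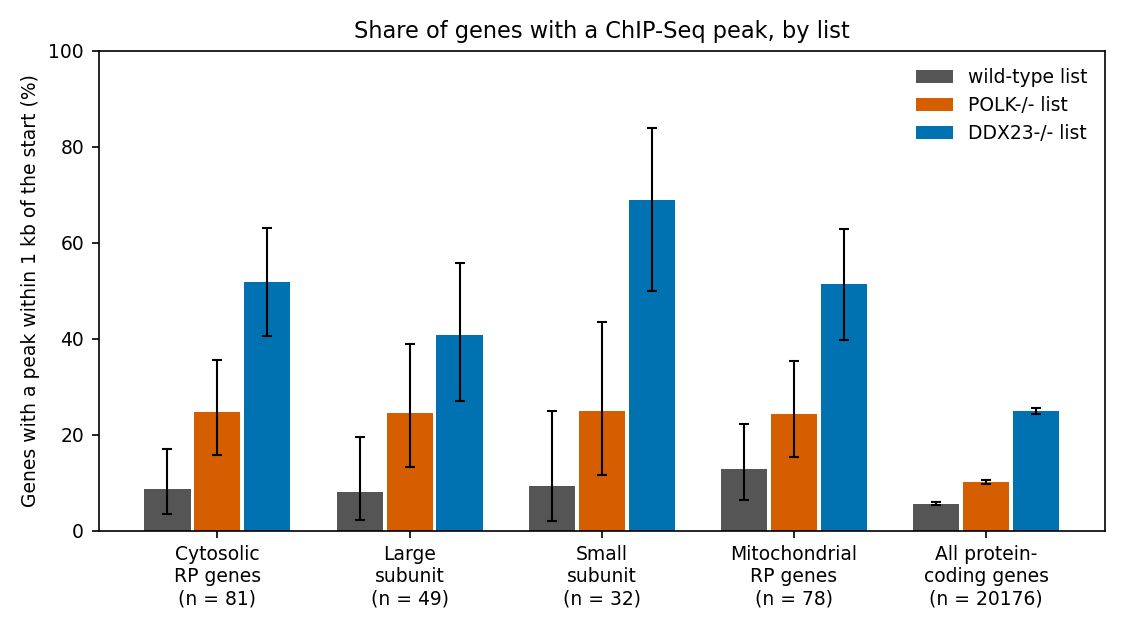
Share of genes with a peak within 1 kb of the annotated gene start (y axis, percent) for 5 sets of genes (x axis), with 1 bar per list and 95% exact binomial intervals as error bars. Cytosolic and mitochondrial ribosomal protein genes reached 51.9% and 51.3% in the DDX23-/- list, against 24.9% of all protein-coding genes.

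The comparison depended on how deep into a list one looks. When each list was cut to its 1468 peaks with the smallest p, the length of the wild-type list, 12 members (14.8%, 7.9 to 24.4%) kept a peak in the POLK-/- list against 5.79% of all genes. In the DDX23-/- list 5 members kept one (6.17%, 2.03 to 13.8%) against 5.72% of all genes: RPL3, RPL6, RPL35, RPLP0 and RPS9. The other members lay among the weaker peaks of that list.

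The 2 subunits had like shares in the shallower lists. Of the large subunit genes 8.16% had a peak in the wild-type list and 24.5% in the POLK-/- list, and of the small subunit genes 9.38% and 25%. In the DDX23-/- list the small subunit stood higher, with 22 of 32 genes (68.8%, 50.0 to 83.9%) against 20 of 49 (40.8%, 27.0 to 55.8%). The 2 intervals overlap and no test was made of the difference.

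In at least 1 list 45 of the 81 members (55.6%) had a peak, against 25.4% of all protein-coding genes, and in all 3 lists 5 members (6.17%) against 4.29%. The lists were largely nested, for members and for all genes. Of the 20 members in the POLK-/- list 18 (90%) were also in the DDX23-/- list, as were 6 of the 7 (85.7%) in the wild-type list, against 95.9% and 97.4% of all protein-coding genes. In the other direction, 18 of the 42 members of the DDX23-/- list (42.9%) were in the POLK-/- list and 6 (14.3%) in the wild-type list, against 38.7% and 22% of all genes. The DDX23-/- list alone held 23 members (28.4%, against 14.1% of all genes), the POLK-/- list alone 2, RPSA and RPL3L (2.47%, against 0.401%), and the wild-type list alone 1, RPS25 (1.23%, against 0.129%).

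The 5 members in all lists were RPL3, RPL23, RPL26, RPLP0 and RPS6. Their values are enrichments, the scaled fragments at the summit over the local background, with 95% Poisson intervals that cover counting error only. RPL26, a large subunit protein mutated in Diamond-Blackfan anaemia, had by annotated start the strongest member peak of the wild-type list, at 33.8 (20.9 to 51.6) on 21 fragments. It stood at 11.4 (7.75 to 16.2) in the POLK-/- list and 7.78 (5.93 to 10.0) in the DDX23-/- list, the lowest values relative to the wild-type list of any member shared with it. Its fragments at the summit, not scaled for the depth of the lists, were 21, 31 and 59. The median peak of these lists held 14, 27 and 34 fragments. The local background at RPL26 was 0.622, 2 and 5, each on the scale of its own list, so these values are not in one unit. The part of depth and background in these values was not tested.

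RPLP0, the base of the ribosomal stalk, had an enrichment of 13.2 (7.54 to 21.4) in the wild-type, 17.7 (12.4 to 24.5) in the POLK-/- and 27.4 (20.8 to 35.5) in the DDX23-/- list. RPL3, which lies next to the peptidyl transferase centre, had 10.7 (5.71 to 18.3), 14.5 (11.0 to 18.7) and 23.6 (18.8 to 29.3). Both stood lowest in the wild-type and highest in the DDX23-/- list. RPL23, which can bind MDM2, had 12.8 (5.84 to 24.2), 8.47 (5.37 to 12.7) and 8.14 (5.73 to 11.2). RPS6, the substrate of the S6 kinases, had 11.5 (6.31 to 19.4), 12 (7.66 to 17.8) and 10.8 (6.69 to 16.5). Intervals of these 2 genes overlap across all lists.

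Among the other large subunit members, RPL5, which forms a complex with RPL11 and 5S RNA that holds MDM2, had an enrichment of 12.2 (8.12 to 17.7) in the POLK-/- and 12.1 (8.73 to 16.2) in the DDX23-/- list. Its partner RPL11 had no peak within 1 kb in any list. RPL35, at the exit of the nascent chain tunnel, was the strongest member of the DDX23-/- list alone, with 24.9 (19.0 to 32.1) on 60 fragments and rank 871 of 5945. RPL7A had 11.1 (7.79 to 15.4) in the POLK-/- and 13.2 (9.33 to 18.3) in the DDX23-/- list. RPL31, RPL27A and RPL23A appeared in the DDX23-/- list alone, at 13.4, 12 and 9.56.

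Of the stalk proteins, RPLP1 had 4.42 (2.83 to 6.57) in the POLK-/- and 8.80 (6.28 to 12) in the DDX23-/- list, and its partner RPLP2 had no peak. The 3 stalk genes thus ran from a peak in every list to none in any.

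Among small subunit members by annotated start, RPS14 was the strongest in the POLK-/- list, with an enrichment of 16.2 (11.2 to 22.8). Loss of RPS14 contributes to the anaemia of the 5q- syndrome. It had 7.78 (5.93 to 10.0) in the DDX23-/- list, where its local background was 5 against 1.5. RPS9 and RPS23, which lie at or near the decoding site, had 15.7 (11.6 to 20.8) and 16.1 (11.6 to 21.7) in the DDX23-/- list and 6.87 (4.57 to 9.93) and 9.42 (6.21 to 13.7) in the POLK-/- list. RPS28 had 11.5 and 15.0 in these lists. Those in the DDX23-/- list alone included RPS3, a protein at the mRNA entry, at 10.9, RPS16 at 11.0, RPS15 at 10.4 and RPS19, the gene most often mutated in Diamond-Blackfan anaemia, at 9.94.

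RPS25 in the wild-type list had an enrichment of 8.84 (4.41 to 15.8) on 11 fragments and rank 1290 of 1468. RPSA, the laminin receptor and a small subunit protein, had 5.40 (3.38 to 8.17) in the POLK-/- list and rank 2194 of 2451. RPS27L, a paralogue of RPS27, was in the wild-type list at 17.4 (8.37 to 32.1) and the DDX23-/- list at 16.5 (11.3 to 23.2), and in the POLK-/- list no peak came within 1 kb.

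**Figure D2:**
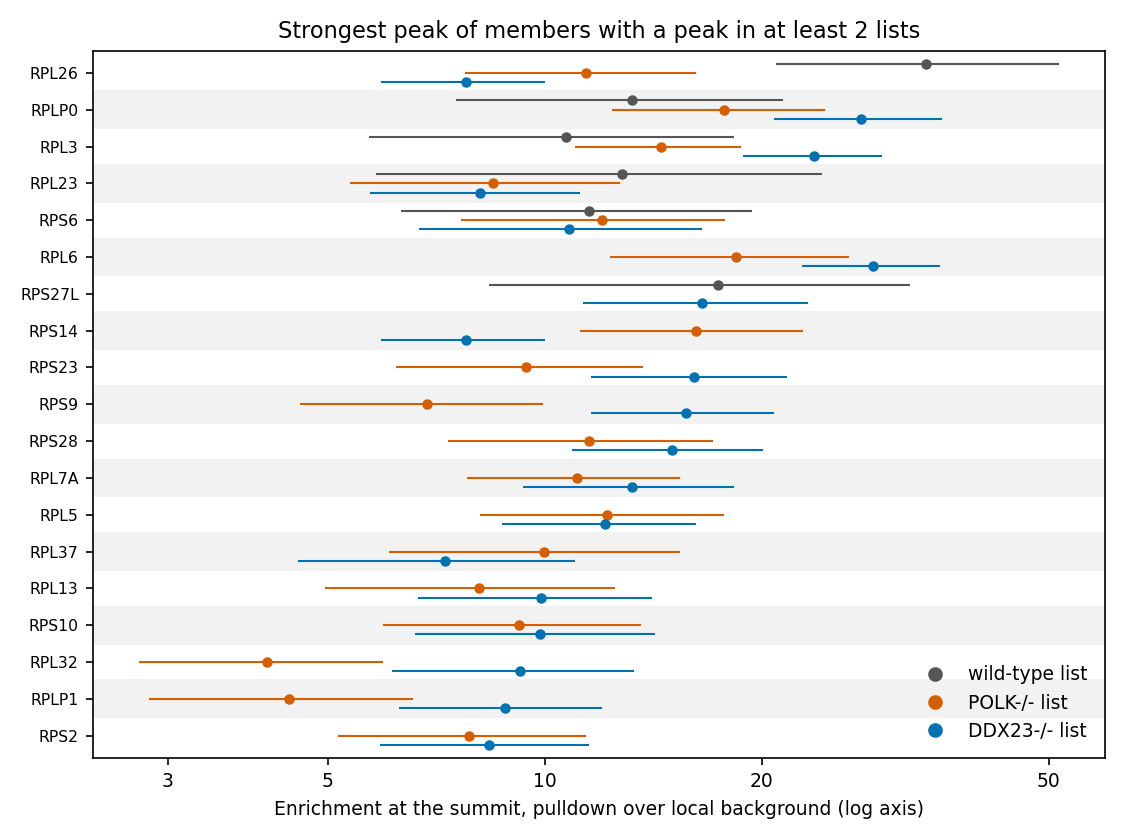
Enrichment at the summit (x axis, log scale, ratio of scaled pulldown fragments to local background) of the strongest peak of each of the 19 members with a peak in at least 2 lists (y axis), 1 point per list with 95% Poisson intervals of the fragment count. RPL26 stands highest in the wild-type list at 33.8 and lower in the others, while RPLP0 and RPL3 stand highest in the DDX23-/- list.

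No peak came within 1 kb of the annotated gene start of 36 members. In the large subunit these included RPL4, RPL7, RPL8, RPL10, RPL10L, RPL11, RPL13A, RPL14, RPL17, RPL18, RPL19, RPL21, RPL22, RPL24, RPL27, RPL28, RPL29, RPL30, RPL34, RPL35A, RPL36, RPL37A, RPL38, RPL39, RPL39L, RPL41 and RPLP2. In the small subunit they included RPS3A, RPS7, RPS12, RPS13, RPS20, RPS26 and RPS27. The nearest to the limit were RPL41 and RPL19 in the DDX23-/- list, whose gene starts lay 1535 and 2444 bp from the edge of a peak. Just inside it was RPL3, 627 bp from its peak in the wild-type list. The absence of a peak says only that none passed the caller's threshold at this depth near the annotated start. RPL4, RPL10, RPL36 and RPL39L, all named above, had a peak within 1 kb of their canonical start, which lies over 1 kb from the annotated one.

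The members' peaks ranked in the middle and lower parts of their lists. Their median rank, counted from the smallest p as a percentage of the list, was 66.9% in the wild-type, 53.7% in the POLK-/- and 57.9% in the DDX23-/- list, and for all protein-coding genes with a peak it was 57.9%, 52.1% and 49.9%. By annotated start, none of the 7 wild-type and 20 POLK-/- peaks of members fell in the strongest 10% of the list, where 2.83% and 3.85% of all genes with a peak did, and 1 of 42 in the DDX23-/- list did (RPL6, 2.38%, against 6.78%). By canonical start the peak beside RPS29 fell there in every list. The peak at the canonical start of RPL36 had a deposited fold of 20.6 in the DDX23-/- list, above the 19.1 of RPL6. The median deposited fold was 6.78, 7.03 and 6.78 for members, and 7.23, 6.95 and 7.38 for all genes with a peak. Members thus carried a peak more often than all genes in the POLK-/- and DDX23-/- lists, while their median folds and ranks lay close to or below those of all genes with a peak. Mitochondrial ribosomal protein genes again gave like values, with median folds of 6.71, 6.71 and 6.70.

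**Figure D3:**
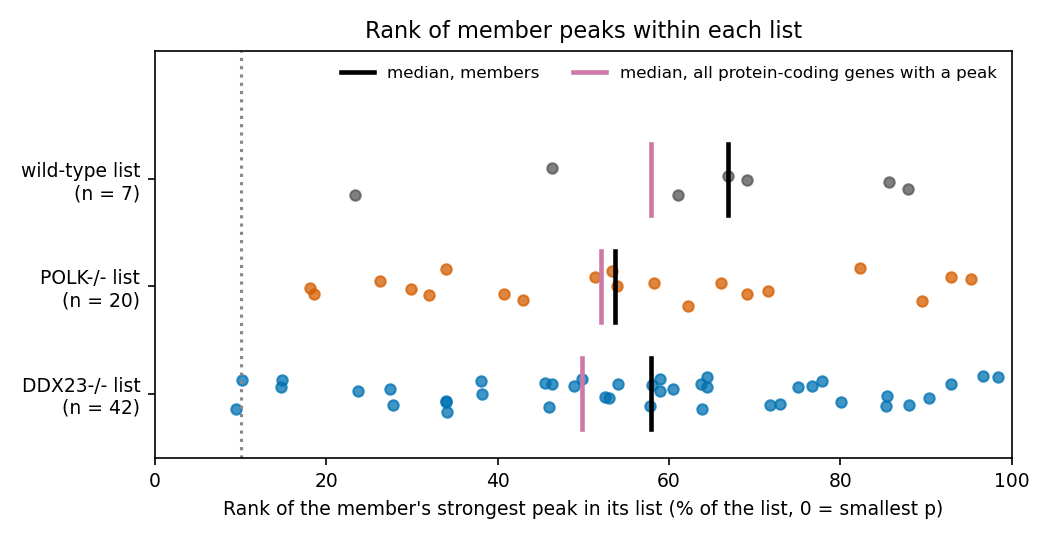
Rank of the strongest peak of each member in its list (x axis, percent of the list, 0 for the smallest p), with 1 row of points per list. Thick black lines mark the members' medians of 66.9%, 53.7% and 57.9%, pink lines the medians of all protein-coding genes with a peak, and the dotted line the strongest 10%.

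Summits stood close to the start of transcription. From the annotated gene start, the median summit position was +51 bp in the wild-type, -35.5 bp in the POLK-/- and +23 bp in the DDX23-/- list. Among the farthest were those of RPL3, at +806, +747 and +752 bp, of RPL15 at +505 bp in the DDX23-/- list, and of RPS27L at +515 bp in the wild-type and +546 bp in the DDX23-/- list. In these genes the annotated start is that of a transcript beginning farther upstream than the canonical one. Measured from the canonical transcript, the same summits lay at +40, -19 and -14 bp for RPL3, -36 bp for RPL15, and -29 and +2 bp for RPS27L. With canonical starts throughout, a choice made after seeing these positions, 8 of 9, 20 of 20 and 41 of 45 summits lay within 250 bp of the start (88.9%, 100% and 91.1%), against 78.8%, 76.9% and 78.6% of all protein-coding genes with a peak. The median position was -29, -63 and -36 bp. Most summits stood upstream of the transcript (31 of 45 in the DDX23-/- list), 11 of those 45 stood in its UTR, and 37 of the 45 peaks spanned the start itself.

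**Figure D4:**
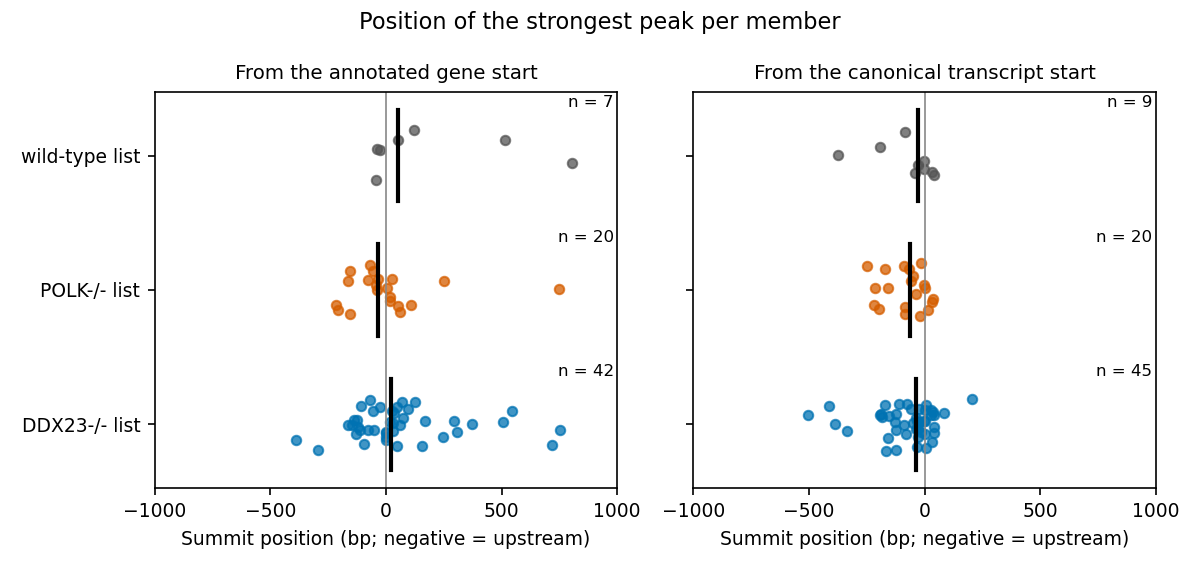
Position of the summit of the strongest peak of each member (x axis, bp, negative upstream on the gene's strand), by list, from the annotated gene start (left) and from the canonical transcript start (right). Black lines mark medians, which from the canonical start are -29, -63 and -36 bp. Points beyond +500 bp on the left draw in to the start on the right.

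The choice of start changed which members had a peak. With canonical starts, 9, 20 and 45 members had one (11.1%, 24.7% and 55.6%, against 5.86%, 10.5% and 26.2% of all genes). A peak in at least 1 list was then found for 47 members (58%, against 26.8% of all genes) and in all 3 lists for 7 (8.64%, against 4.47%). The 2 starts lay over 1 kb apart in 9 members. RPL6 had the strongest member peak of the DDX23-/- list by annotated start, with an enrichment of 28.5 (22.7 to 35.3) and rank 563, and 18.4 (12.3 to 26.4) in the POLK-/- list. Its summits lay at +19 bp in the DDX23-/- and +27 bp in the POLK-/- list from the annotated start of RPL6. The canonical start of RPL6 lies 9233 bp downstream. The DDX23-/- summit is 468 bp from the start of PTPN11, which encodes the phosphatase SHP2. RPL3L, the paralogue that replaces RPL3 in striated muscle, had its peak at 19.4 (14.4 to 25.7) in the POLK-/- list. The summit lay at -34 bp from the annotated start of RPL3L and at -2951 bp from its canonical start. Neither gene had a peak at its canonical start.

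With canonical starts, RPL36 and RPS29 had a peak in all 3 lists. By annotated start RPL36 had none, and RPS29 had a weak one in the DDX23-/- list, at 9.26 (5.49 to 14.6). At RPL36 the enrichment was 39.5 (25.3 to 58.7), 15.7 (12.1 to 20.1) and 31.2 (25 to 38.4), with summits at -1, -50 and -22 bp. At RPS29 it was 68.2 (52.8 to 86.8), 158 (138 to 181) and 62.0 (55 to 69.7), the largest of any member, with ranks of 135, 77 and 133. The summits there lay at -193, -196 and -190 bp from the start of RPS29. A stretch of 297 bases at chr14:50053298-50053594 in GRCh37, on the opposite strand to RPS29, matched RN7SL2 at 293 bases (98.7%), and the summits lay at -7, -4 and -10 bp from its start. RN7SL2 encodes 7SL RNA, the RNA of the signal recognition particle, which is made by RNA polymerase III. RefSeq, on GRCh38.p14, lists a 7SL gene other than RN7SL2, RN7SL1, inside RPS29. RN7SL1 is not in the GRCh37 annotation used, and the matching stretch was taken as its place. The peak beside RPS29 is thus nearer to the start of a 7SL sequence than to that of the ribosomal protein gene, and how reads were shared between copies this alike is not given in the sources used here. RPL10, RPL4 and RPL39L had a peak within 1 kb of the canonical start in the DDX23-/- list alone, at 9.04, 7.40 and 7.59. RPL39L is a testis paralogue of RPL39. The summit assigned to RPL4 lay 506 bp from its canonical start and 402 bp from the start of ZWILCH, inside ZWILCH.

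Among members, starts shared with a neighbour carried peaks more often in the DDX23-/- list. Of the 18 members with the start of another protein-coding gene within 1 kb, 14 (77.8%, 52.4 to 93.6%) had a peak, against 28 of the 63 others (44.4%, 31.9 to 57.5%). The 2 intervals overlap and no test was made. In the POLK-/- list the shares were 27.8% and 23.8%, and in the wild-type list 11.1% and 7.94%. Of all protein-coding genes 24.9%, 10.1% and 5.61% had a peak in the DDX23-/-, POLK-/- and wild-type lists. All genes were not split by neighbour, so the difference is not shown to be particular to members. At RPS10, RPL26 and RPL17 the only other protein-coding start is on the same strand, at -2, +26 and +29 bp. The summit in several such pairs was nearer to the neighbour. The wild-type summit at RPS25 lay 47 bp from the start of TRAPPC4 and 373 bp from the canonical start of RPS25, and the DDX23-/- summit at RPL12 lay 29 bp from LRSAM1 and 112 bp from RPL12. At RPL35 the order was reversed, 43 bp from RPL35 and 216 bp from ARPC5L. At RPLP0 the DDX23-/- summit lay 1 bp from the canonical start and 164 bp from that of PXN-AS1, a lncRNA on the other strand. At RPL26 it lay 28 bp from the canonical start and 22 bp from the start of ENSG00000263809, a protein-coding gene annotated on the same strand. Which gene of a pair a peak belongs to cannot be told from the lists.

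Members were also counted by other features. Of the 29 members that hold a snoRNA, 14 (48.3%) had a peak in the DDX23-/- list, against 28 of 52 (53.8%) of those that hold none. Of 18 genes mutated in Diamond-Blackfan anaemia, a peak was found for 1 with wild-type, 4 with POLK-/- and 10 with DDX23-/- cells (5.56%, 22.2% and 55.6%). Of all protein-coding genes 5.61%, 10.1% and 24.9% had a peak in these lists. Another 15 genes are no members but have mRNAs with terminal oligopyrimidine tracts, mostly for translation factors. Of these, 1, 1 and 5 had a peak (6.67%, 6.67% and 33.3%). These shares lay below those of the members in each list, on few genes and without a test. Beside all genes, the share of these 15 was close in the wild-type list, lower in the POLK-/- list and higher in the DDX23-/- list. Of 9 ribosomal proteins whose names fall outside the rule, among them FAU and RACK1, 0, 2 and 4 had a peak. The shares of all genes, 5.61%, 10.1% and 24.9%, stand beside these counts too.

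Where 2 lists both held a peak at a member, the peaks overlapped in every case, with a median distance between summits of 18 bp for the wild-type and POLK-/- lists, 42.5 bp for wild-type and DDX23-/-, and 38 bp for POLK-/- and DDX23-/-. The median ratio of enrichments was 1.04 for POLK-/- over wild-type (5 members, 0.857 for all genes shared), 0.94 for DDX23-/- over wild-type (6 members, 1.15 for all) and 1.21 for DDX23-/- over POLK-/- (18 members, 1.43 for all). With the deposited folds in place of enrichments, the medians were 1.11 for members and 1.17 for all genes, 1.23 and 1.61, and 1.17 and 1.47 in the same order, so that the side of 1 on which the medians of all genes for POLK-/- over wild-type and of members for DDX23-/- over wild-type lay depended on the measure. The ratio at RPL26 was 0.338 (0.188 to 0.619) for POLK-/- over wild-type and 0.231 (0.138 to 0.399) for DDX23-/- over wild-type, and 0.585 and 0.491 by the deposited folds. RPL3 at 2.2 (1.22 to 4.31) and RPLP0 at 2.08 (1.18 to 3.87) stood above 1 for DDX23-/- over wild-type. Between DDX23-/- and POLK-/-, RPS9 at 2.29 (1.41 to 3.78), RPL32 at 2.24 (1.28 to 3.92), RPLP1 at 1.99 (1.17 to 3.45), RPS23 at 1.71 (1.03 to 2.87) and RPL3 at 1.63 (1.15 to 2.32) stood above 1, and RPS14 at 0.48 (0.308 to 0.759) below it. These intervals compare the fragments of 2 libraries at 1 site and do not compare genotypes.

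The pyrimidine tract distinguished members from other genes, and members with and without a peak held it in like shares. Values are given for the canonical start, chosen after seeing the data, and then for the annotated start. A run of at least 5 pyrimidines covered the canonical start of 61 of 81 members (75.3%, 64.5 to 84.2%), against 7.85% of all protein-coding genes and 7.69% of mitochondrial ribosomal protein genes. At the annotated start it was 39.5% of members against 8.92% of all genes. At the canonical start it did so in 35 of the 47 members with a peak at the canonical start in any list (74.5%, 59.7 to 86.1%) and in 26 of the 34 without (76.5%, 58.8 to 89.3%). The letters CCGGAA, the core bound by ETS factors, were sought on either strand from 250 bases before to 50 after the canonical start. They stood in 55.6% of members, 22.6% of all genes and 60.3% of mitochondrial ribosomal protein genes. Among members they stood in 46.8% (32.1 to 61.9%) of those with a peak and 67.6% (49.5 to 82.6%) of those without. At the annotated start 44.4% of members and 19.4% of all genes held them, and 42.2% and 47.2% of members with and without a peak, so the gap between the last 2 rests on the choice of start. AAGATGG, part of the YY1 motif, stood in 17.3% of members and 6.44% of all genes, and in 17.0% and 17.6% of members with and without a peak. At the annotated start it stood in 6.17% of members and 5.63% of all genes, so its excess in members was seen at the canonical start only. In mitochondrial ribosomal protein genes AAGATGG stood in 32.1% at the canonical and 23.1% at the annotated start. The excess of CCGGAA and AAGATGG over all genes was thus not particular to members. The GC box GGGCGG stood in 61.7% of members and 60.9% of all genes at the canonical start and in 51.9% and 52.1% at the annotated one. At the canonical start the E box CACGTG stood in 6.17% of members and 8.73% of all genes. GCATGCG, part of the NRF1 motif, stood there in 9.88% and 5.09%, and in 10.3% of mitochondrial ribosomal protein genes. TATAAA between 50 and 15 bases before that start stood in 4.94% of members and 4.02% of all genes. The median GC content of the window was 60.0% in members and 63.3% in all genes. A match is a match of letters only.

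**Figure D5:**
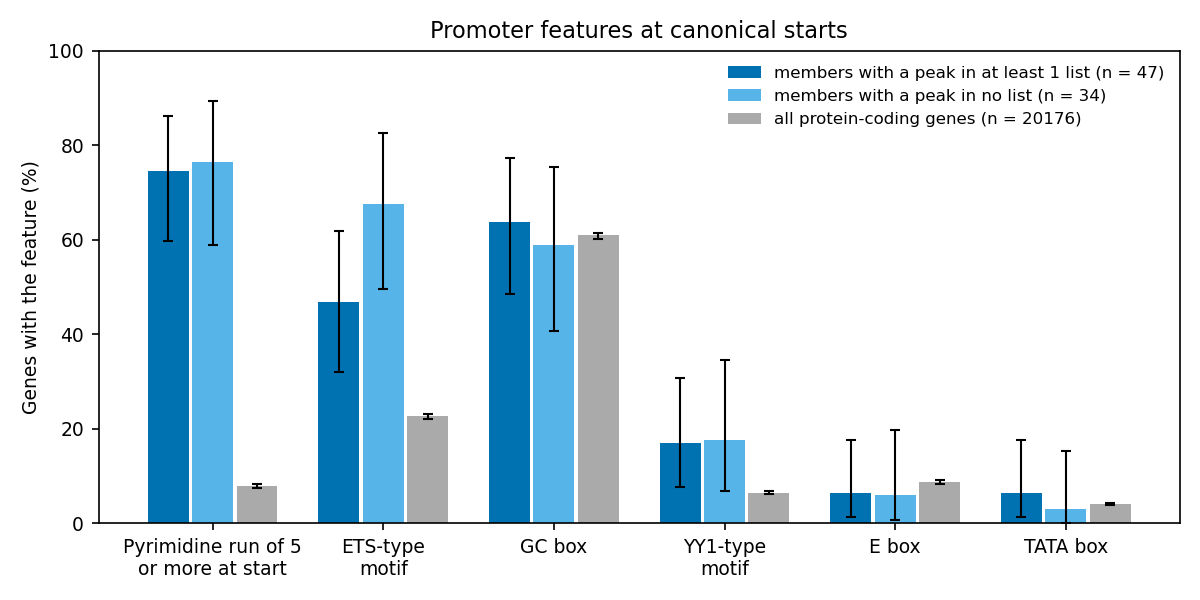
Share of genes (y axis, percent) with a pyrimidine run of at least 5 at the canonical start or with a motif in the window around it (x axis), for 47 members with a peak in at least 1 list, 34 members with none, and all protein-coding genes, with 95% exact binomial intervals. The pyrimidine run was found in 74.5% and 76.5% of the members and in 7.85% of all genes.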

How the data were processed

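ChIP-Seq peak lists of 3 HEK293T genotypes were analysed. The submitters' processing notes name Bowtie2, MACS2, bedtools, deepTools and hg19, without roles or versions. The study's methods give Bowtie2 alignment to hg19 and duplicate removal for the Pol κ-Flag ChIP-Seq, and for these lists the threshold, control and pooling are not given in the sources used here. The authors deposited for each peak a fold, which is a ratio of fragments to local background with 1 added to both terms, the −log10 of the p-value and of the q-value, and a score derived from the q-value. No read counts were used here.

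Fragments and background at each summit were solved from the fold and p of each peak by the Poisson formula of the peak caller, to a relative tolerance of 0.1% in −log10 p, for 1468 of 1468, 2451 of 2451 and 5945 of 5945 peaks, and were tested on simulated data. Pulldown fragments were brought to the scale of the background by a factor of 0.7362 (POLK-/-) and 0.6596 (DDX23-/-). In the wild-type list the factor was 1, so its fragments were not scaled. Enrichment is the scaled fragments over background. A peak counted if any base lay within 1 kb of the gene start (GENCODE 44 placed on GRCh37, the same build as hg19), and the peak with the smallest p was kept per gene. Shares have exact binomial (Clopper-Pearson) and fragments exact Poisson 95% intervals, and intervals of ratios come from the exact binomial split of fragments. They cover counting error only, and genes were described by counts and medians without a test. Python 3 with numpy, pandas and scipy was used.

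The members and gene lists were chosen with earlier results of these data known. Genes were named if they were among the 8 members with the smallest p of a list, were found in 1 list only (up to 10 per list) or in none, had one of the 5 farthest summits of a list or one of the 5 strongest peaks beside a neighbour, or were stalk genes, RPSA, RPL5, RPL11, RPL3L, RPL10L or RPL39L. RPL36, RPS29, RPL4 and RPL10 at canonical starts, and other members given as examples, were named after their values were seen. Some genes that the rule names are not reported here. Alternatives were the summit within 1 kb, distances of 500 bp and 5 kb, any transcript start, q of 1e-05 or less, equal numbers of peaks, members without neighbours, the proteins outside the rule added, deposited folds in place of enrichments, and a wider sequence window.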

Additional observations from a re-analysis of the deposited data

How the results depend on the processing

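Of 123 alternative values of 19 results, 117 stayed within the interval of the reported value. For the wild-type medians and the median ratios over wild-type, that interval is the full range of the few members. It ran from 0.231 to 2.2 for the DDX23-/- over wild-type ratio, and from -43 to 806 bp for the wild-type summit position. A wild-type summit median of 515 bp without neighbours, against 51 bp, was thus counted as within it. A median can hardly leave such a range, so the count says little about these results. When all lists were cut to the length of the shortest, the share of members with a peak was 14.8% in the POLK-/- and 6.17% in the DDX23-/- list, and in the DDX23-/- list the median fold was 16.3 and the median summit position +67 bp, on 5 genes. By construction that setting keeps only the strongest peaks. It also gave a median DDX23-/- over wild-type ratio of 2.14, above 1 where the reported 0.94 is below it, as did the deposited folds with 1.23, while a distance of 500 bp gave 0.85 for POLK-/- over wild-type, below 1. These medians rest on few genes, and no direction is drawn from them. In a window from 500 bases before to 100 after the gene start 64.2% of members held GGGCGG, against 51.9% in the narrower window, and 17.3% held AAGATGG around the canonical start, against 6.17% around the annotated one. The canonical start was chosen after seeing the data. Depth limits the wild-type list most. No paired analysis was possible because the data used here are 1 peak list per genotype, although the labels give 2 pulldown libraries each, and no result comes from a test.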
